A study of Homo sapiens with 36 samples.

Results

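The RNA of WiT49 cells, a cell line from an anaplastic Wilms tumor of the kidney, was compared after 6 h with 2 nM actinomycin D (actD) and after 6 h with its vehicle, dimethyl sulfoxide (DMSO). All 6 libraries of total RNA that carry this time point in the series were used, 3 per treatment, of 36 libraries in all, and 22669 of the 58219 listed genes had enough counts to be tested. Both groups were the same line in the same complete medium and no gene was edited in either, so the comparison describes 1 cell line and 1 dose. The labels call the libraries replicates without naming separate cultures, and the p-values below therefore measure the spread between these libraries.

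Actinomycin D inserts itself between the bases of DNA, preferring sites with guanine next to cytosine, and stalls RNA polymerases. At low doses it is known for stopping RNA polymerase I, the enzyme that transcribes the ribosomal RNA genes in the nucleolus, before it stops RNA polymerase II, which makes messenger RNA. It is one of the standard drugs against Wilms tumor.

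The libraries held 58421293 to 69240041 counts. Levels are given as CPM, counts per 1000000 after scaling of the libraries to each other, and differences as log2(actD/DMSO), so that a value of 1 is a doubling. Markers fixed for the check of the label showed KRT8 and KRT18, keratins of simple epithelium, at 2900 to 4280 and 1750 to 2580 CPM, VIM, the mesenchymal filament vimentin, at 317 to 436 CPM, and WT1, the Wilms tumor gene, at 7.48 to 13.2 CPM. The 10 markers of blood and endothelium summed to 1.54 to 2.36 CPM, and PTPRC and HBB were at 0 in every library. SIX2, a transcription factor of nephron progenitors, stood at 0.251 to 0.514 CPM, and the collagen gene COL1A2 at 0. actD replicates 1 and 2 resembled each other more than either resembled actD replicate 3: over all genes, a chi-square divided by its degrees of freedom came to 13.5 for these 2 libraries and to 35.4 and 37.5 for the pairs with replicate 3, and it ranged from 22 to 46.3 among the DMSO libraries.

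Relative to the bulk of genes, few transcripts moved far within 6 h. The median log2 difference over all tested genes was 0.02 and its median absolute size 0.19. The scaling of the libraries to each other places the bulk of genes near 0. A rise or fall shared by most transcripts therefore cannot be seen in these values or in shares of counts. With edgeR's quasi-likelihood test and Benjamini-Hochberg adjustment 0 genes (0.0%) were called at an adjusted p under 0.05. The lowest edgeR adjusted p was 0.0596, shared by 5 genes, and 23 genes, 10 higher and 13 lower with actD, lay under 0.1. At an unadjusted edgeR p under 0.05 there were 1862 genes (8.21%), 833 higher (3.67%) and 1029 lower (4.54%), and the 3 actD libraries did not overlap the 3 DMSO libraries for 15.8% of all tested genes (7.66% higher, 8.17% lower). Protein-coding genes had somewhat larger shares, 10.3% at an unadjusted edgeR p under 0.05 and 8.63% higher and 10.2% lower without overlap. DESeq2 called 204 genes (0.9%), 60 higher (0.265%) and 144 lower (0.635%). Of these, 199 had groups that did not overlap, and 177 were protein-coding (1.19% of the 14921 tested), 48 higher (0.322%) and 129 lower (0.865%). limma-voom called 7, among them the autophagy gene GABARAPL1, the tubulin gene TUBB3, the DNA repair gene TDG and the translocon gene SEC61A1. In the text that follows, a gene named with a DESeq2 adjusted p under 0.05 was called by DESeq2 and not by edgeR. Some of these calls were lost when DMSO replicate 2 was left out, with DESeq2 adjusted p-values of 0.0601 to 0.325: GABARAP, SERTAD1, SNORD17, ZNF566, VGLL3, WWC1, PDCD11, NAT10, MYBBP1A, HARS2, DNMT1, TPX2, SNRNP200, ZNF497 and HIST2H3PS2. At its highest, the DESeq2 adjusted p was 0.191 for SCARNA21 without actD replicate 2, 0.241 for MCM2 without DMSO replicate 1 and 0.154 for FP236383.1 without DMSO replicate 3.

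**Figure D1:**
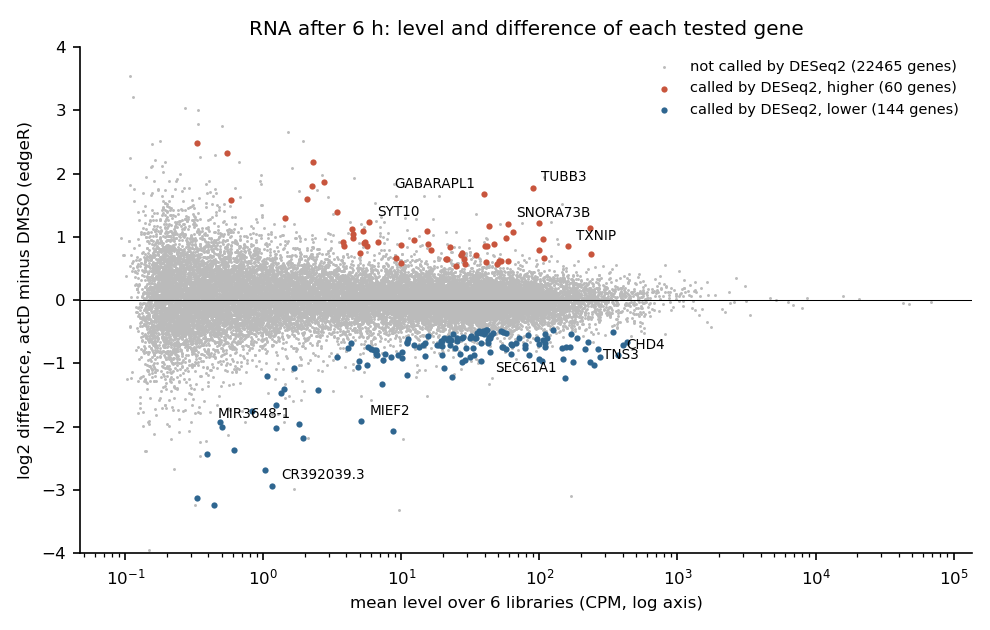
Mean level over the 6 libraries (CPM, log axis) against the log2 difference between actD and DMSO for each tested gene, with the 60 genes DESeq2 called higher in red and the 144 it called lower in blue. Most genes lie close to 0, the genes called lower are mostly moderately to highly expressed, and 9 genes lie beyond the plotted range of 4.

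The transcribed spacer of the ribosomal RNA genes stood among the lowest with actD. Ribosomal RNA is made as a long precursor, whose spacers are cut away and destroyed within minutes, so spacer RNA follows the current rate of transcription while the mature ribosomal RNAs are stable. The genes annotated as the microRNA genes MIR3648-1 and MIR3687-1 lie in the 5′ external transcribed spacer. Their copies MIR3648-2 and MIR3687-2, further along chromosome 21, lie outside the RefSeq 45S precursor genes used here. MIR3648-1 (ENSG00000275708.1, GRCh38 chromosome 21, 8208473 to 8208652, plus strand) begins at base 2486 of the RefSeq 45S precursor gene RNA45SN2 (8205988 to 8219302) and ends 978 bases before the 18S gene RNA18SN2. MIR3687-1 (8208844 to 8208904) follows it, ending 726 bases before the 18S gene. The mature miR-3648 is printed to show its base composition, in which 17 of 21 bases are G or C. It is taken from RefSeq (GRCh38.p14, chr21:8987026-8987046, plus strand, the MIR3648-2 copy) with its seed, bases 2 to 8, in capitals.
miR-3648: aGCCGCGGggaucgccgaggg

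MIR3648-1 was at 1.1, 0.698 and 0.426 CPM in the actD libraries and at 3.0, 2.59 and 3.12 CPM in the DMSO libraries. The groups did not overlap, with means of 0.742 ± 0.341 and 2.9 ± 0.277 CPM (SD, n = 3 each), a log2 difference of -1.96 ± 0.34 (SE), an edgeR adjusted p of 0.182 and a DESeq2 adjusted p of 1.67e-05. MIR3687-1, downstream of it in the same copy, differed by -2.0 (DESeq2 adjusted p = 0.00985). In the second copy MIR3648-2 differed by -2.02 (DESeq2 adjusted p = 8.34e-05), whereas MIR3687-2, at -1.78, was not called by DESeq2 (DESeq2 adjusted p = 0.12). Because the copies are near-identical their reads can be shared out between them, so the 4 genes were also summed. The sums were 2.19, 1.62 and 0.937 CPM with actD and 6.67, 5.49 and 6.5 CPM with DMSO, or 1.58 ± 0.627 against 6.22 ± 0.639 (SD, n = 3 each). The sum was 3.93-fold higher with DMSO (p = 0.1, two-sided exact permutation test; 3 libraries against 3 cannot give less). The highest actD library lay well below the lowest DMSO library. The depth behind these values is small, with 55 to 135 counts in the actD and 350 to 432 in the DMSO libraries.

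Several other annotated RNAs in this region of chromosome 21 showed the same direction. FP236383.1, a long noncoding RNA spanning a 45S unit on the plus strand, was at 0.227, 0.19 and 0.187 CPM with actD and 0.571, 0.674 and 1.06 CPM with DMSO (log2 difference -1.92, DESeq2 adjusted p = 0.0242), and its counterpart FP671120.1 differed by -2.08 (edgeR adjusted p = 0.463). CR392039.3, a long noncoding RNA annotated at 8996496 to 9018670 on the minus strand of chromosome 21, was at 0.243, 0.238 and 0.324 CPM with actD and 1.33, 1.94 and 2.91 CPM with DMSO. Its groups did not overlap, and it had the lowest DESeq2 adjusted p of any noncoding gene named here (1.14e-08; log2 difference -2.93 ± 0.37, edgeR adjusted p = 0.0876). It was chosen after its values were seen. FP236383.3, annotated on the strand opposite to 18S, differed by -0.99 (DESeq2 adjusted p = 0.0875), with 24.2 CPM in DMSO replicate 1 inside the actD range of 19.6 to 28.8 CPM. The 5.8S genes, which encode a mature ribosomal RNA, overlapped between the groups: the copy with most counts was at 2.27, 3.67 and 6.29 CPM with actD and 1.03, 4.99 and 6.36 CPM with DMSO. With levels this low and a spread this wide within each group, the 5.8S values cannot show whether mature ribosomal RNA changed. Whether reads were counted by strand is not given in the sources used here, so reads of overlapping genes on opposite strands cannot be told apart. As in any bulk RNA, fewer cells with a transcript and less transcript per cell cannot be told apart either.

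Small nucleolar RNAs, which guide the chemical modification and cleavage of ribosomal RNA, held more of the counts with actD. Of 169 tested, 19 (11.2%) were higher and 1 (0.592%) was lower at an unadjusted edgeR p under 0.05, beside 3.67% and 4.54% of all genes tested. Regardless of p, 90 were higher and 79 lower, and their median log2 difference was 0.03, close to the 0.02 of all genes tested. Their share of all counts was 0.148%, 0.124% and 0.181% in the actD libraries and 0.104%, 0.108% and 0.107% in the DMSO libraries. The groups did not overlap (0.151% ± 0.0287 against 0.106% ± 0.00204, SD, n = 3 each) and the exact permutation test, two-sided, gave p = 0.1, or 0.6 after Benjamini-Hochberg adjustment over the 12 gene types compared. A large part of this share was 1 gene, SNORD3A, whose levels are given below, so the share does not describe the class evenly. The box H/ACA class, which guides pseudouridylation, had 14 of 82 members higher and 1 lower, and the box C/D class, most of which guide methylation, 5 of 64 higher and 0 lower. The median differences of the 2 classes were 0.15 and -0.06. With single libraries left out the C/D median ranged from -0.22 (without actD replicate 1) to 0.07 (without actD replicate 3), and 1 to 3 C/D members were higher and 1 or 2 lower. Over all small nucleolar RNAs, 7 (4.14%) were higher without actD replicate 3 and 6 (3.55%) without DMSO replicate 2, beside 3.47% and 2.64% of all genes, and the H/ACA count was 4 of 87 and 5 of 85 without these libraries.

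SNORA73B (GRCh38 chromosome 1, 28508559 to 28508762), an H/ACA RNA known from the early cleavage of the ribosomal RNA precursor rather than from pseudouridylation, was at 83.2, 62.6 and 100 CPM with actD and 37.0, 34.5 and 34.9 CPM with DMSO. The lowest actD library exceeded the highest DMSO library by a wide margin, and the log2 difference was 1.21 ± 0.17 (SE; edgeR adjusted p = 0.0982, DESeq2 adjusted p = 8.79e-07). Its close relative SNORA73A, next to it, differed by 1.22 (DESeq2 adjusted p = 0.00206). SNORA53 was at 5.34, 3.47 and 6.15 CPM against 1.96, 1.87 and 1.89 CPM, a difference of 1.39 ± 0.24 (DESeq2 adjusted p = 0.000138). Among C/D RNAs SNORD17 differed by 0.91 (DESeq2 adjusted p = 0.00788), and SNORD3A, the U3 RNA needed for the first cleavages of the precursor, was at 838, 727 and 1310 CPM against 714, 659 and 593 CPM (log2 difference 0.55, edgeR adjusted p = 0.588). The genes that overlap these RNAs on the same strand showed smaller differences. SNHG3 and RCC1, which overlap SNORA73A and SNORA73B, differed by -0.11 and -0.38, SNX5, which contains SNORD17, by -0.19, and SLC25A3, which contains SNORA53, by 0.07 (edgeR adjusted p = 0.924). SCARNA21, a guide RNA of the Cajal body, was lower (3.16, 2.78 and 4.17 CPM against 7.38, 5.02 and 7.26 CPM; log2 difference -0.96, DESeq2 adjusted p = 0.021).

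Most other gene types took like shares in both groups. Protein-coding genes took 74.7% ± 2.01 of the counts with actD and 74.6% ± 2.09 with DMSO, mitochondrial ribosomal RNAs 7.71% ± 0.452 and 7.76% ± 0.679, and small nuclear RNAs 2.25% ± 0.0829 and 2.21% ± 0.0567 (SD, n = 3 each). RN7SK, the abundant 7SK RNA that holds the elongation factor P-TEFb inactive, was at 19900 to 22000 CPM with actD and 18900 to 21500 CPM with DMSO. Processed pseudogenes, copies of spliced messengers whose reads can stem from their parent genes, held 0.908% ± 0.0393 against 0.854% ± 0.0156 without overlap (exact permutation test, two-sided, p = 0.1, Benjamini-Hochberg adjusted 0.6). None of the 12 types had an adjusted p under 0.6 by the exact permutation test. Among long noncoding RNA classes, 37 higher and 24 lower of 1259 lincRNAs and 41 higher and 40 lower of 1975 antisense RNAs had an unadjusted edgeR p under 0.05, all shares below those of all genes tested.

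GABARAPL1 (GRCh38 chromosome 12, 10212458 to 10223130) encodes a ubiquitin-like protein that is attached to autophagosome membranes, and it was at 60.9, 51.6 and 68.8 CPM in the actD libraries and 16, 18 and 23.1 CPM in the DMSO libraries. It was 3.17-fold higher with no overlap (log2 difference 1.67 ± 0.17 SE, edgeR adjusted p = 0.0596, DESeq2 adjusted p = 5.76e-14). Its relative GABARAP was at 57.8, 60.9 and 67.7 CPM against 37.8, 37.9 and 45 CPM, which again did not overlap (log2 difference 0.63, DESeq2 adjusted p = 0.00792). GABARAPL2 and ATG12, which take part in the same conjugation, differed by 0.24 and 0.30 (edgeR adjusted p = 0.729 and 0.607). Of 28 tested genes of autophagy and the lysosome, GABARAPL1 and GABARAP were the 2 higher at an unadjusted edgeR p under 0.05 and 0 were lower, and the list's median difference was 0.03.

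TUBB3 (chromosome 16, 89921392 to 89938761), the beta-tubulin of neurons and of many cancer cells, was at 124, 140 and 152 CPM with actD and 39.4, 50.6 and 30.6 CPM with DMSO, a log2 difference of 1.78 ± 0.19 (edgeR adjusted p = 0.0596, DESeq2 adjusted p = 5.76e-14). The annotation holds another gene, AC092143.1, over it on the same strand, so its reads can be divided between them. TDG (chromosome 12, 103965804 to 103988874), the thymine DNA glycosylase that removes mismatched or oxidised bases at CpG sites, was at 80.3, 76.4 and 71.7 CPM against 40.1, 37.7 and 38.3 CPM, close to a doubling in each library (log2 difference 0.98 ± 0.10, edgeR adjusted p = 0.0596). SYT10, a synaptotagmin, stood at 8.26, 8.23 and 7.96 CPM against 3.03, 3.65 and 3.76 CPM (log2 difference 1.23, DESeq2 adjusted p = 7.61e-08). In all 3 genes every actD library lay above every DMSO library, which was a condition of the rule that named them. Smaller differences without overlap were found for KCTD10, an adaptor of a ubiquitin ligase (0.89), API5, an inhibitor of apoptosis (0.66), SAT1, which acetylates polyamines for their breakdown (0.80), the zinc finger gene ZNF331 (0.75) and SERTAD1, a cell cycle regulator (0.65), with DESeq2 adjusted p-values of 1.6e-06, 0.000428, 0.000287, 0.000471 and 0.012.

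TXNIP, ARRDC4 and ARRDC3 encode arrestin-domain proteins and were each higher, ARRDC3 being chosen after its values were seen. TXNIP binds thioredoxin and, like ARRDC4, limits glucose uptake. TXNIP was at 182, 217 and 218 CPM with actD and 105, 122 and 114 CPM with DMSO (log2 difference 0.86 ± 0.12 SE, DESeq2 adjusted p = 6.37e-06). ARRDC4 was at 46.7, 51.9 and 57.7 CPM against 28.7, 29 and 28.8 CPM (log2 difference 0.85 ± 0.11, DESeq2 adjusted p = 7.92e-06). ARRDC3 was at 15.5, 17.6 and 15.7 CPM against 8.17, 10.8 and 6.4 CPM (log2 difference 0.95 ± 0.20, DESeq2 adjusted p = 0.00399). All 3 genes separated the groups, and each had an edgeR adjusted p of 0.0982 or more. Leaving out single libraries kept TXNIP between 0.80 and 0.94 and ARRDC4 between 0.77 and 0.93, while ARRDC3 had a DESeq2 adjusted p of 0.0825 without actD replicate 2. The promoters of TXNIP and ARRDC4 are known for carbohydrate response elements, pairs of E-box motifs 5 bases apart, and stretches of both, from 250 to 45 bases before the RefSeq start, are shown for the E-box positions. They are from RefSeq (GRCh38.p14, chr1:145996624-145996829, minus strand, and chr15:97960453-97960658, plus strand), with each match of CACGNG on either strand in capitals and, in TXNIP, also the bases inside the pair.
TXNIP: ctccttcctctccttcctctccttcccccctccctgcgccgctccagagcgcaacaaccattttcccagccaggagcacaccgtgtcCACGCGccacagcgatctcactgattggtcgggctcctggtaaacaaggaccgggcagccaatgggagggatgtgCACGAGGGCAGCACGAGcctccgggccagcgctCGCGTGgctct
ARRDC4: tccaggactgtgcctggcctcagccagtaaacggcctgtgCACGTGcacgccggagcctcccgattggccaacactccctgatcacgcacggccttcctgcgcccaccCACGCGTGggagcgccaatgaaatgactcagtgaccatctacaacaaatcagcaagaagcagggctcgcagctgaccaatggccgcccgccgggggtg

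In the 250 bases before the start, TXNIP held 4 matches of CACGNG and 1 match of the pair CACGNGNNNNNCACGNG, which begins 88 bases before the start. ARRDC4 held 3 matches of CACGNG, a pair of which overlap, and 0 of the pair, and ARRDC3 held 0 of either. Both motifs were searched on both strands. The pair occurred in 16 of 15480 such windows (0.103%), at least 1 CACGNG in 31.2%, and at least 2 in 7.93%. Among the 10056 windows of tested genes these shares were 0.119%, 36.5% and 9.52%. Because the elements were known beforehand, the match in TXNIP is no separate result.

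GPR62, an orphan receptor gene, and AC115284.2, a transcript of unclassified type on the opposite strand next to it on chromosome 3, were both several-fold higher at low levels, and were chosen after their values were seen. GPR62 (51955314 to 51957504) was at 3.84, 3.68 and 3.02 CPM against 0.849, 0.831 and 1.32 CPM (log2 difference 1.81, edgeR adjusted p = 0.0982). AC115284.2 (51951849 to 51953902) was at 4.17, 4.0 and 3.19 CPM against 0.525, 0.706 and 1.26 CPM (log2 difference 2.18, edgeR adjusted p = 0.125). For neither gene did the groups overlap, and the nearby genes PCBP4 and PARP3 differed by 0.10 and 0.12. PCBP4 overlaps GPR62 on the other strand.

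SEC61A1 (chromosome 3, 128051641 to 128071683) encodes the channel through which new proteins enter the endoplasmic reticulum, and it was at 88, 100 and 84.5 CPM with actD and 241, 208 and 192 CPM with DMSO (log2 difference -1.23 ± 0.13 SE, edgeR adjusted p = 0.0596, DESeq2 adjusted p = 2.63e-11). TNS3, a tensin that links integrins to actin, was at 171, 178 and 145 CPM against 354, 313 and 342 CPM (log2 difference -1.03 ± 0.13, DESeq2 adjusted p = 5.96e-09). MIEF2, a mitochondrial fission adaptor, was at 2.81, 2.0 and 1.64 CPM against 8.99, 8.34 and 6.89 CPM (log2 difference -1.91 ± 0.23, DESeq2 adjusted p = 1.27e-10). In each the highest actD library lay under the lowest DMSO library, again a condition of the rule that named them. HDAC4, a histone deacetylase that shuttles between nucleus and cytoplasm, was at 18.9, 19.4 and 20.8 CPM against 37.3, 38.5 and 37.9 CPM, so that its SDs of 0.986 and 0.58 CPM were small beside a log2 difference of -0.94 ± 0.10 (edgeR adjusted p = 0.0629). RPTOR, the substrate-recruiting subunit of the growth kinase complex mTORC1, was at 26, 28.6 and 23.1 CPM against 49.6, 49.4 and 51.4 CPM (log2 difference -0.95 ± 0.12, DESeq2 adjusted p = 1.06e-07). SNX29, a sorting nexin, was at 6.97, 6.98 and 7.12 CPM against 13.1, 13.3 and 13.3 CPM (log2 difference -0.92, DESeq2 adjusted p = 2.27e-06). These 3 genes are long, spanning 353487, 421553 and 597553 bases of genome, as are DIP2C (-0.89, 415479 bases) and the spindle checkpoint gene MAD1L1 (-0.82, 417451 bases), both also lower without overlap. RBM14, a paraspeckle protein gene of 10766 bases, differed by -0.76 (DESeq2 adjusted p = 1.13e-05).

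**Figure D2:**
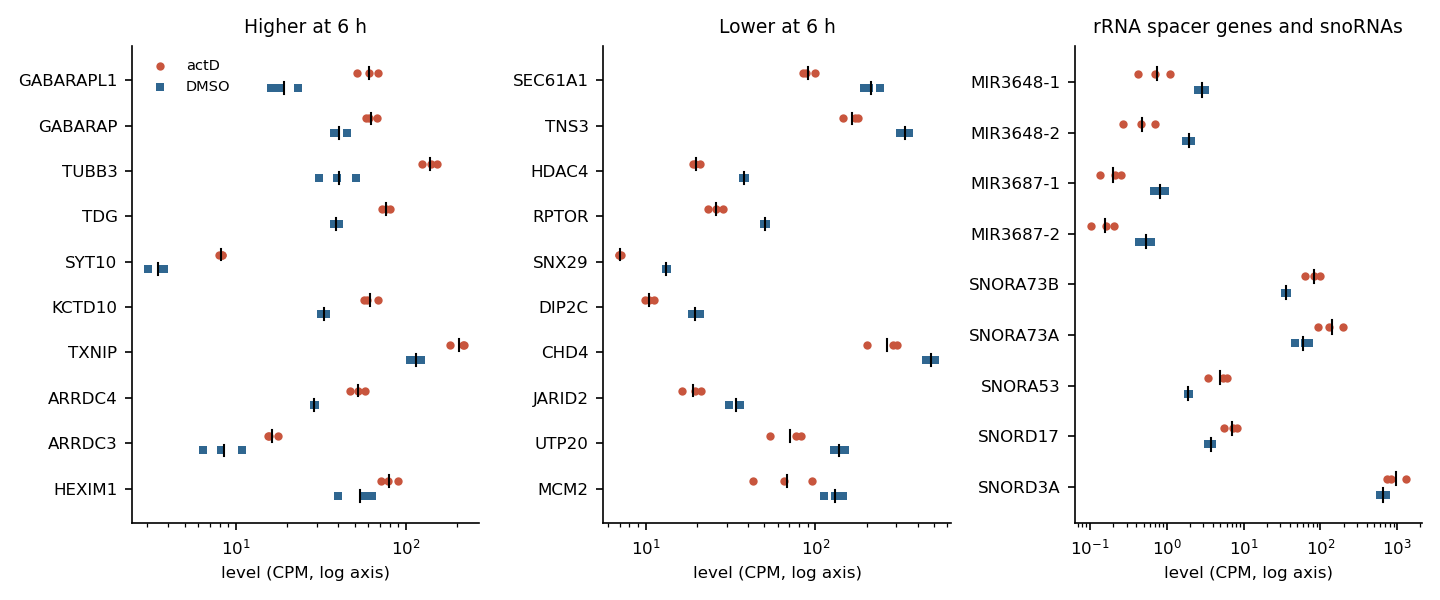
Levels of 29 genes in each library (CPM, log axis), with circles for actD, squares for DMSO and vertical bars for group means of 3 libraries. SEC61A1, TNS3 and HDAC4 are lower and GABARAPL1, TDG and SNORA73B higher in every actD library than in any DMSO library, and MIR3648-1 lies at 0.426 to 1.1 CPM with actD against 2.59 to 3.12 CPM with DMSO.

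Some large differences rest on estimates that jump between libraries. ZNF497 was listed at 0 in all 3 actD libraries and at 6.3, 0.878 and 0.608 CPM in the DMSO libraries. HIST2H3PS2 was at 0.0324, 0.206 and 0.256 CPM with actD and at 0.0463, 26.4 and 19.9 CPM with DMSO, so DMSO replicate 1 sat with the actD libraries. SC5D, an enzyme of cholesterol synthesis, was at 176, 176 and 178 CPM with actD but 41.8, 164 and 79.6 CPM with DMSO. In all, 5 tested genes were listed at 0 in every library of a group, and 4 of them were among the DESeq2 calls.

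Ribosome assembly factors included more lower members than the background. The lists described here were chosen with earlier results of these data known, and counts are of members at an unadjusted edgeR p under 0.05, beside 3.67% higher and 4.54% lower among all genes tested. Most lists hold protein-coding genes, of which 4.31% were higher and 6.03% lower. In the decile of protein-coding genes with most exons 1.88% were higher and 17.2% lower. Whether the share of a list differs from that of other genes with like GC content and exon number was not tested. Of 45 ribosome biogenesis factors 8 (17.8%) were lower and 0 were higher, with a median of -0.10. UTP20, a scaffold of the particle that processes the 18S precursor, was at 77.1, 81.7 and 53.6 CPM against 136, 149 and 129 CPM (log2 difference -0.96 ± 0.17 SE, edgeR adjusted p = 0.185, DESeq2 adjusted p = 0.000149). MYBBP1A, RRP12, NOP2, NOL6 and BOP1 differed by -0.73, -0.76, -0.58, -0.47 and -0.58 without overlap, and of these only MYBBP1A had a DESeq2 adjusted p under 0.05 (0.0446). In all 6 of these genes actD replicate 3 was the lowest library. With single libraries left out the list had 6 to 12 members lower, and 6 without that library. The shares of all genes tested also moved in these settings, from 2.6% to 4.5% higher and from 3.33% to 4.65% lower. The same range applies to the counts without single libraries given for the lists below. PDCD11, which processes ribosomal RNA, and NAT10, which acetylates it, are not on the list and were named after their values were seen (log2 difference -0.73 and -0.67, DESeq2 adjusted p = 0.00325 and 0.0286). Of the 16 genes of RNA polymerase I and its factors 1 was lower, POLR1A, its largest subunit, at 147, 158 and 125 CPM against 197, 194 and 205 CPM (log2 difference -0.47 ± 0.12, edgeR adjusted p = 0.429). Of the 84 ribosomal protein genes 0 passed in either direction, with a median of 0.12, and of -0.03 without actD replicate 3.

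DNA replication genes had the highest share of lower members among the lists, 12 of 38 (31.6%) against 1 higher, with a median of -0.15. MCM2, a subunit of the replicative helicase, was at 65.6, 95.6 and 42.7 CPM against 146, 131 and 113 CPM (log2 difference -0.94 ± 0.27, edgeR adjusted p = 0.464, DESeq2 adjusted p = 0.0348). UHRF1, which guides DNA methylation to newly copied strands, MCM6, CDC6, which loads the helicase, and LIG1, the ligase of lagging strands, differed by -0.64, -0.39, -0.51 and -0.43. CCNE2, the cyclin of the entry into DNA replication, was the member that was higher (17.9, 20.8 and 20.7 CPM against 15.8, 15.7 and 13.3 CPM; log2 difference 0.41). The count of lower members was 5 without actD replicate 3, DMSO replicate 1 or DMSO replicate 2 and 10 to 13 without any other library. Mitotic genes had 2 of 42 lower, a share near the background, but 7 without DMSO replicate 3 and 5 without DMSO replicate 1, with TPX2, a spindle assembly factor, at -0.66 (DESeq2 adjusted p = 0.0459). Among 44 genes of DNA damage and repair 4 were lower, including TOP1, which relaxes supercoils (-0.59), and PARP1, a sensor of strand breaks (-0.66), and 1 was higher, TDP2 (0.42), which removes stalled topoisomerase from DNA. The count of lower members was 2 without actD replicate 3 or DMSO replicate 2.

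Chromatin regulators had 6 of 35 lower (17.1%) and 1 higher. CHD4, the helicase of the NuRD repressor complex, was at 286, 304 and 200 CPM against 451, 506 and 481 CPM (log2 difference -0.87 ± 0.17, DESeq2 adjusted p = 0.000886). JARID2, a partner of Polycomb repressive complex 2, was at 19.6, 21.1 and 16.3 CPM against 35.2, 36.1 and 31.1 CPM (log2 difference -0.85 ± 0.14, DESeq2 adjusted p = 0.000149). DNMT1, the maintenance DNA methyltransferase, was at 128, 137 and 82 CPM against 195, 198 and 186 CPM (log2 difference -0.74 ± 0.19, DESeq2 adjusted p = 0.0301). In these 3 genes the groups did not overlap. Aminoacyl-tRNA synthetases, which charge tRNAs with amino acids, had 6 of 36 lower (16.7%) and 0 higher, led by HARS2 (-0.61, DESeq2 adjusted p = 0.0491) and AARS (-0.48), with 2 lower without actD replicate 1. In the Hippo pathway, which controls organ size through YAP, 5 of 27 were lower, among them WWC1, an upstream activator (-0.50, DESeq2 adjusted p = 0.025), and CTGF, a target (-0.72), and 1 was higher, VGLL3 (0.67, DESeq2 adjusted p = 0.024). The Hippo count was 1 without DMSO replicate 1.

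Zinc finger genes, HOX genes, p53 targets and immediate-early genes were among the lists with more higher than lower members. Of 476 genes with a ZNF symbol 47 (9.87%) were higher and 15 (3.15%) lower, with a median of 0.12. ZNF331 and ZNF566 were at 30.8, 37.1 and 35.6 against 19.4, 19.5 and 22.4 CPM and at 12.7, 11 and 12 against 7.97, 7.72 and 8.1 CPM, and both separated the groups. The ZNF count was 27 without actD replicate 1 or DMSO replicate 1. Of 36 HOX genes 7 were higher and 0 lower, HOXC8 and HOXD9 by 1.04 and 0.93 at 0.654 to 1.65 CPM, and 3 to 5 were higher without single libraries, fewest without DMSO replicate 2. Of 27 p53 targets 4 were higher and 0 lower: BTG2 (0.51), TIGAR (0.37), GADD45A (0.51) and RRM2B (0.31), with edgeR adjusted p-values of 0.565 to 0.594. CDKN1A, the cell cycle inhibitor p21, and MDM2, the ligase that degrades p53, overlapped between the groups at 6.59, 7.03 and 9.11 against 5.64, 5.46 and 7.7 CPM and at 146, 147 and 185 against 115, 115 and 151 CPM. The p53 count was 1 without DMSO replicate 1, and without DMSO replicate 2 it was 1 higher and 1 lower. Of 50 immediate-early genes 5 were higher and 2 lower, with NR4A3, an orphan nuclear receptor, at 2.35, 2.55 and 2.49 CPM against 1.02, 0.737 and 1.96 CPM (log2 difference 0.99, edgeR adjusted p = 0.56). Their count of higher members ranged from 2 (4%) without DMSO replicate 2 to 10 (20%) without DMSO replicate 3, beside 2.64% and 4.5% of all genes.

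HEXIM1, which together with 7SK RNA restrains P-TEFb, was at 70.8, 78.1 and 89.7 CPM against 40.0, 57.0 and 62.8 CPM (log2 difference 0.58 ± 0.18, edgeR adjusted p = 0.499). The groups did not overlap, and LARP7, which stabilises 7SK, was higher by 0.41, whereas the elongation factors SUPT6H and SUPT5H were at -0.52 and -0.39. In this list 2 of 20 members were higher and 3 lower, and 1 was lower without actD replicate 1, actD replicate 3 or DMSO replicate 1. MYC stood at 1.13 to 2.35 CPM with a difference of -0.16, and its relative MYCN, named after its values were seen, at 126 to 159 CPM with -0.04. WT1 and SIX2 overlapped between the groups, with differences of -0.17 and 0.00 (edgeR adjusted p = 0.895 and 0.999), and 0 of 19 nephron progenitor genes passed in either direction.

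Proteasome genes, which the title of the series singles out, were near the background: of 46 tested 1 was lower, PSMD1, a regulatory subunit (-0.42, edgeR adjusted p = 0.586), and 0 were higher, with a median of 0.02. Replication histones had 6 of 73 higher and 1 lower, including HIST1H3A (0.65) and HIST3H2A (0.46), and 1 higher without actD replicate 3 or DMSO replicate 3. Transcripts encoded in mitochondrial DNA had 5 of 36 lower, with MT-CO2, a subunit of cytochrome c oxidase, at 119, 156 and 252 CPM against 360, 255 and 227 CPM. For MT-CO2 actD replicate 3 lay inside the DMSO range. Over the list, 18 of 36 were lower without that library, and 2 without actD replicate 1 or DMSO replicate 1.

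**Figure D3:**
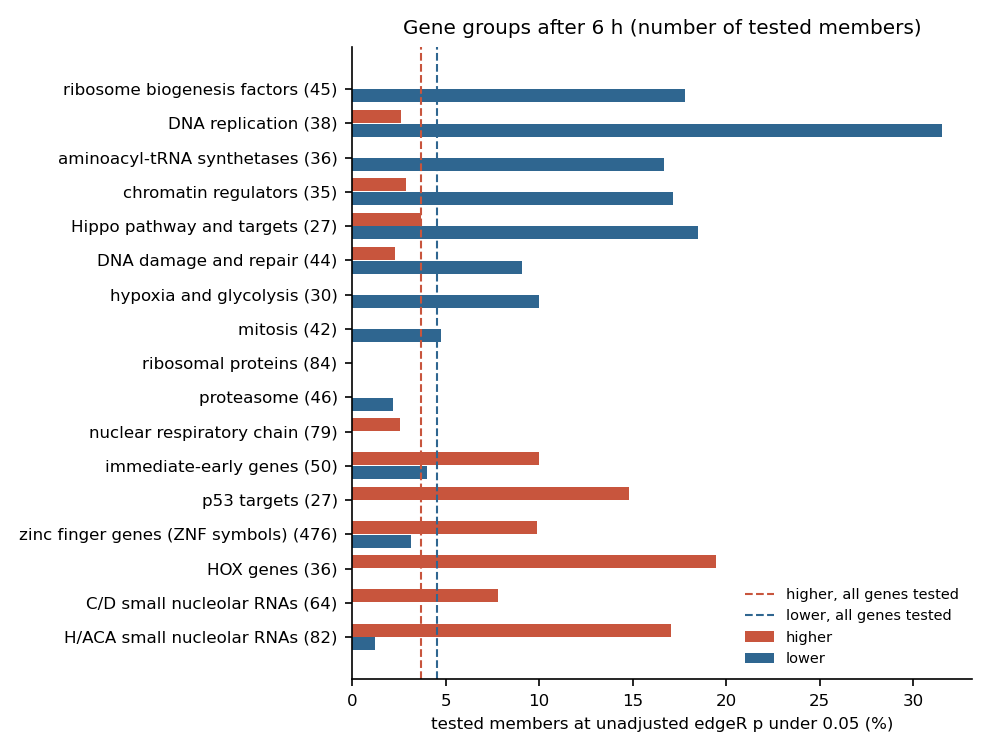
Percent of the tested members of each gene group that were higher (red) or lower (blue) with actD at an unadjusted edgeR p under 0.05, with the number tested in brackets and dashed lines for all genes tested (3.67% higher, 4.54% lower). DNA replication genes reach 31.6% lower, and ribosomal proteins have no bar in either direction.

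GC content separated the treatments by a narrow margin. For each library the deviation of every gene from its mean over the 6 libraries was regressed on the GC content of the gene's longest transcript. Per 10 percentage points of GC, the slopes were -0.051, -0.00722 and -0.0644 log2 units in the actD libraries and 0.0934, 0.0164 and 0.0128 in the DMSO libraries. The groups did not overlap, with a difference of -0.0817 (p = 0.1, exact permutation test, two-sided), but actD replicate 2 and DMSO replicate 3 lay close together. Because the deviations are from the mean of the same 6 libraries, the group means of the slopes are mirror images by construction. Their opposite signs are therefore no separate result. The steepest slope was that of DMSO replicate 1, and without it the difference was -0.0555. Among protein-coding genes, of which 4.31% were higher and 6.03% lower at an unadjusted edgeR p under 0.05, the decile with the lowest GC (30.2% to 38.6%) had a median difference of 0.17, with 11.4% higher and 0.67% lower. The decile with the highest GC (62.1% to 76%) had a median of -0.09, with 2.14% higher and 10.5% lower. In the low-GC decile DMSO replicate 1 lay lowest, with a median deviation of -0.19, and actD replicate 3 highest, with 0.19, while actD replicate 2 and DMSO replicate 2 hardly differed (0.0072 and -0.0046). The share of GC in the 250 bases before the start gave a smaller slope, with a difference of -0.03 and slopes that overlapped between the groups. At 72 h the same low-GC and high-GC deciles had medians of -0.02 and 0.10, the opposite order.

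Lower genes were also those with many exons and a long genomic span. In the decile of protein-coding genes with most exon blocks (27 to 368 separate stretches after merging all transcripts) 17.2% were lower and 1.88% higher, with a median of -0.13, and it held 48 of the genes DESeq2 called lower. In the decile with fewest (1 to 3) 2.75% were lower and 6.16% higher. The decile with the longest span (172 to 2300 kb) had 16% lower and 2.75% higher, with a median of -0.10, and held 51 of the genes DESeq2 called lower. Over the exon deciles the median went down stepwise from 0.08 in the decile next to the lowest to -0.13, and the share of lower genes went up from 2.21% to 17.2%. Over the deciles of transcript length the share of lower genes went from 1.81% to 11.3%, and over those of span it was between 2.34% and 6.37% up to the eighth and then 9.12% and 16%. The slopes of the deviations on span, exon count and transcript length overlapped between the groups all the same. Over protein-coding genes they differed by -0.0131, -0.0416 and -0.021 per doubling (p = 0.4, 0.2 and 0.7, exact permutation tests, two-sided), and over all genes by -0.00336, -0.0165 and -0.00374 (p = 0.9, 0.6 and 0.9). For exons, actD replicate 3 and DMSO replicate 3 stood at opposite ends, with median deviations of -0.11 and 0.17 in the top decile, and the order of the libraries there was not the order seen for GC. With genes split by both GC and exon number, the extreme medians lay where both were low or both high. Genes in the low range of both GC (31.1% to 44.2%) and exon blocks (1 to 7) had a median of 0.16 with 9.67% higher, and those in the high range of both (54.5% to 70.5%, 15 to 120 exon blocks) a median of -0.15 with 18.8% lower. Genes of low GC and many exon blocks had a median of 0.03, with 3.91% higher and 5.15% lower. Those of high GC and few exon blocks had a median of 0.01, with 3.63% higher and 3.88% lower.

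**Figure D4:**
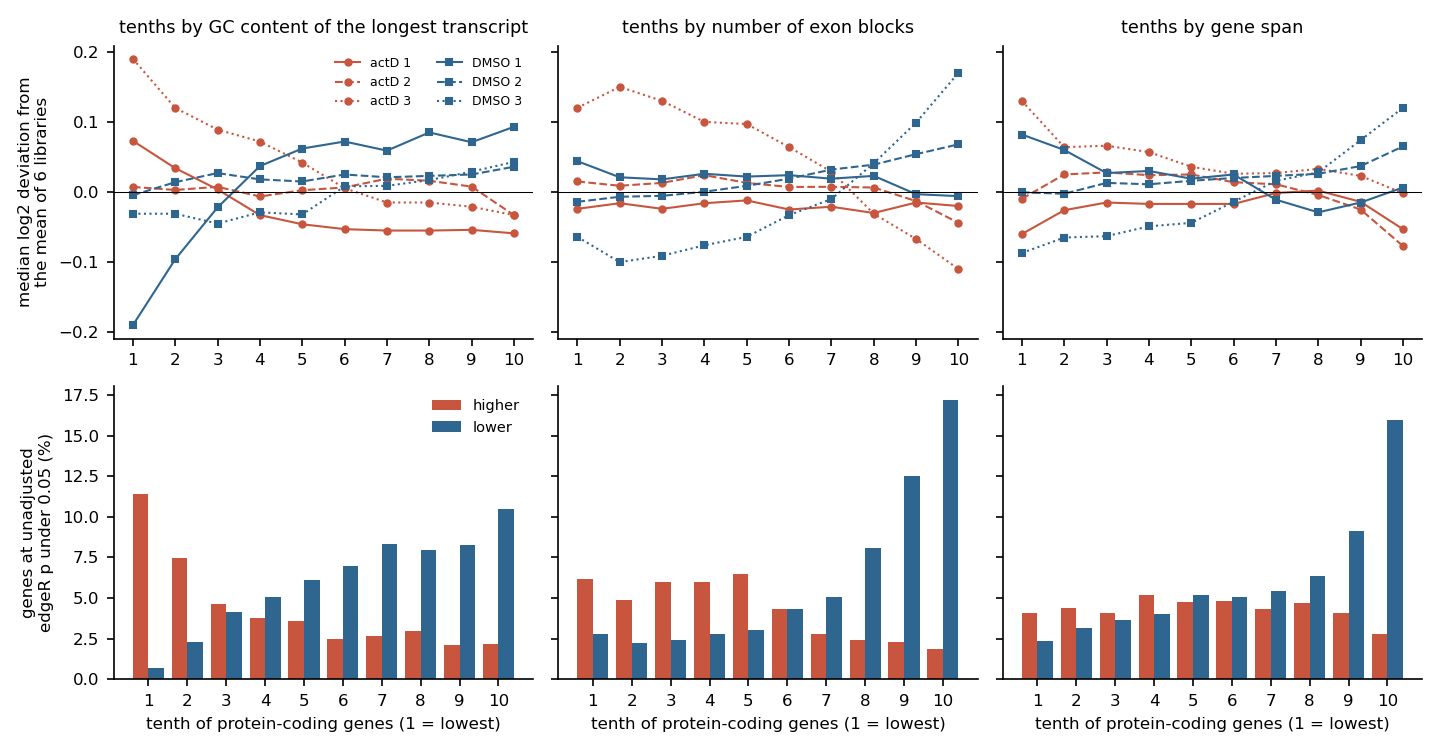
Protein-coding genes in deciles by GC content of the longest transcript, number of exon blocks and genomic span (1 is the lowest). The upper panels show each library's median log2 deviation from the mean of the 6 libraries, and the lower panels the percent of genes higher (red) and lower (blue) with actD at an unadjusted edgeR p under 0.05, which reaches 17.2% lower for genes with most exon blocks.

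The genes that DESeq2 called differed accordingly in build. The 129 protein-coding genes called lower had a median GC content of 55%, a median span of 106304 bases and a median of 21 exon blocks, and 68 of them (52.7%) spanned more than 100 kb, beside 20% of all tested protein-coding genes. The 48 called higher had a median GC content of 43.7%, a median span of 16990 bases and 7 exon blocks, and 3 of them (6.25%) spanned more than 100 kb. For all tested protein-coding genes the medians were 49%, 32122 bases and 10 exon blocks. The genes called lower were also more highly expressed than usual, at a median of 32 CPM against 19.4 CPM.

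The 72 h libraries, which have their own DMSO controls and took no part in the DESeq2 calls at 6 h, were used to follow the called genes. Of the 124 genes called lower at 6 h that could be tested at 72 h, 115 (92.7%) had a negative difference there, beside 54.8% of all tested protein-coding genes, and their median was -0.72, close to the -0.73 at 6 h. Long genes and genes with many exons were lower at 72 h as a class. The deciles of longest span and most exon blocks had 72 h medians of -0.40 and -0.31, beside -0.05 for all tested protein-coding genes. Whether the called genes differ from other genes of like build was not tested. TNS3, RPTOR, SNX29, DIP2C and CHD4 were at -1.27, -1.20, -1.27, -1.43 and -1.34 at 72 h. SND1, a nuclease that binds RNA, went from -0.75 at 6 h to -2.57, and MCM2 from -0.94 to -1.79. SEC61A1 was close to 0 at 72 h (-0.03), and MIEF2 was higher (0.30). Of the 45 genes called higher at 6 h and tested at 72 h, 29 were also higher there, with a median of 0.19. TXNIP and ARRDC4 were at 1.81 and 1.92, larger than at 6 h, whereas GABARAPL1, TDG and TUBB3 were at 0.42, 0.08 and -0.28. GPR62 and AC115284.2 were at 2.77 and 3.11, and CR392039.3 at -3.80. Like SND1, these were named after their values were seen, so their 72 h values may have had a part in the choice. At 72 h edgeR called 1 gene in all (0.00472%; 13.1% of genes had an unadjusted p under 0.05), so these are directions and sizes, and the lowest 72 h edgeR adjusted p among the genes named here was 0.0746, for AC115284.2. Whether the differences at 72 h and 6 h differ was not tested here. Across 10869 protein-coding genes with a mean of at least 5 CPM, Pearson's r between the differences at 6 h and 72 h was 0.31, a description over genes that are not independent replicates.

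**Figure D5:**
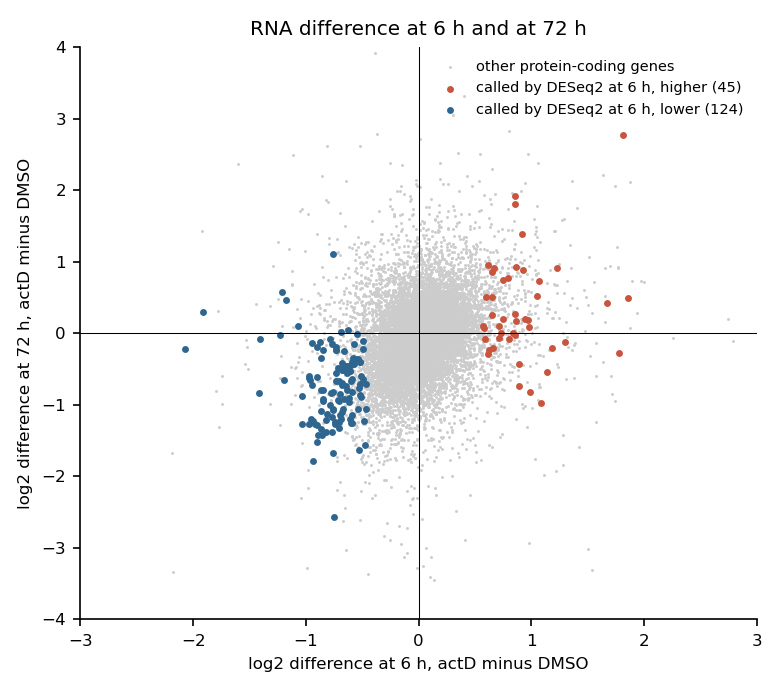
Log2 difference between actD and DMSO at 6 h against that at 72 h for protein-coding genes tested at both times, with the genes DESeq2 called at 6 h in colour. Of the 124 called lower, 115 lie below 0 at 72 h, the 45 called higher lie on both sides of 0, and 12 genes lie beyond the plotted range.

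Ribosome footprints, the RNA fragments protected by translating ribosomes, were sequenced in separate libraries at 6 h, and 1212 genes could be tested in them, 0 of which edgeR called (0.0%; 38, or 3.14%, at an unadjusted p under 0.05). Of the 129 protein-coding genes called lower in RNA, 12 were deep enough, and all 12 had fewer footprints with actD, with a median of -1.2, beside 477 of 806 tested protein-coding genes (59.2%). They included CHD4 (-1.69), the talin gene TLN1 (-1.67), CLTC, the clathrin heavy chain (-1.43), and the splicing helicase SNRNP200 (-0.92). The edgeR adjusted p in footprints was 0.889 for CHD4, TLN1 and CLTC. A gene can pass the depth filter through the libraries of 1 group alone, and whether this favoured genes lower with actD was not tested. In RNA, TLN1 was at 112, 118 and 76 CPM against 195, 199 and 192 CPM, and CLTC at 330, 326 and 256 CPM against 477, 525 and 488 CPM, without overlap in either gene. SNORA73B and SNORA53 were at 2.44 and 2.54 in the footprint libraries, where a small nucleolar RNA is a fragment of similar size and no sign of translation.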

How the data were processed

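The series holds total RNA and ribosome footprint libraries of WiT49 cells at 3 times, and the 6 RNA libraries at 6 h were analysed, with the 72 h RNA and 6 h footprint libraries as further readouts. The authors deposited estimated counts per gene without normalization. HISAT2, StringTie and the genome build hg38 are named per the submitters' processing notes, with no versions. The labels name 2 RNA extraction kits and 2 library kits without saying which library had which, so their part in any difference was not tested. Small estimated counts pile up at multiples of 2.68, and counts were rounded to whole numbers before testing. With the version 94.6% and without it 99.4% of gene IDs matched GENCODE release 29, which gave symbols, gene types, coordinates, span, exon blocks and GC content.

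Genes were filtered with filterByExpr, scaled by TMM and tested with edgeR 4.0.16 in R 4.3.3 (quasi-likelihood F test of actD against DMSO, Benjamini-Hochberg adjusted p under 0.05). Alternatives used DESeq2 1.42.0, limma 3.58.1 (voom), other scalings and filters, the replicate number as a block and each library left out. Slopes were computed in Python 3.11.15 from log2 values with 0.5 counts added. On simulated data of 22669 genes for this comparison, edgeR called 70 of 100 genes changed by 1 and 98 of 100 changed by 2 on the log2 scale, with 12 false calls. The changed genes were drawn from those with a mean of at least 5 CPM, so these numbers do not cover genes at lower levels. The simulated counts also lacked the pile-up of small values in the deposited counts.

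The members and gene lists were chosen with earlier results of these data known, and no count over a list was tested. Named genes were the 12 higher and 12 lower with the smallest edgeR p among those of at least 5 CPM whose groups did not overlap, up to 6 per list of at least 1 CPM, 4 most abundant and 4 of smallest p per gene type, the 6 of smallest DESeq2 adjusted p in each direction, and MYC, CDKN1A, MDM2, HEXIM1, WT1 and SIX2. Genes named outside it were chosen after their values were seen: GPR62, AC115284.2, CR392039.3, MYCN, PDCD11, NAT10, ARRDC3, SERTAD1, SND1, TLN1, CLTC, SNRNP200, the ribosomal DNA spacer genes and the host and neighbour genes.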

Additional observations from a re-analysis of the deposited data

How the results depend on the processing

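The number of genes called in RNA at 6 h depended on the test: edgeR called 0, DESeq2 204, limma-voom 7 (6 of them among the 204), and a fit of all 18 RNA libraries 1, AC115284.2. With 1 library left out edgeR called 0 to 6 genes (6 without DMSO replicate 1 or DMSO replicate 2, 5 without actD replicate 2, 1 without actD replicate 3). With library totals, TMM factors from protein-coding genes, no filter, a mean of at least 1 CPM, or counts divided by their step of 2.68, edgeR called 0. At an unadjusted p under 0.05 the count was 1862, and 1142 in the fit of all 18 libraries. The cause of these differences was not tested. DESeq2 without single libraries, an alternative chosen after seeing the data, called 141 to 295 genes, of which 103 to 158 were among the 204.

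Same-numbered libraries did not deviate together (correlations -0.0773, -0.0245 and -0.145), and the labels give no other sign that the numbers pair them. With the replicate number as a block edgeR called 0 genes and 1387 had an unadjusted p under 0.05. A block leaves the differences in slope as they are by construction. The difference in GC slope stayed negative under all alternatives, from -0.0986 to -0.0555 without single libraries and -0.03 for promoter GC. Without single libraries the difference in slope ranged from -0.0271 to 0.0101 for transcript length (above 0 without actD replicate 1, actD replicate 2, DMSO replicate 1 or DMSO replicate 2) and from -0.0172 to 0.00576 for gene span (above 0 without actD replicate 1 or actD replicate 2). Of 423 list medians under alternatives, 17 moved by more than the spread between replicates. GC content over whole gene spans was not run. Depth limits the spacer RNAs and other genes with few counts, whose estimates jump between libraries.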

Other observations

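Further gene groups are set here beside the background of 3.67% higher and 4.54% lower at an unadjusted edgeR p under 0.05, with all 6 libraries. Some lay near or below it and others, with few members, above it. Translation factors had 0 of 69 members higher and 2 lower, nuclear genes of the respiratory chain 2 of 79 higher and 0 lower, and mitochondrial ribosomal proteins 0 of 78 in either direction. Without DMSO replicate 3, 8 mitochondrial ribosomal proteins (10.3%) were lower, beside 4.65% of all genes, and without DMSO replicate 1, 3 were higher and 1 lower. Stress programs showed no common direction: ATF4 targets had 2 of 24 higher (8.33%) and 0 lower, unfolded protein response genes 0 of 15 in either direction, and heat shock genes 1 of 16 higher (6.25%) and 0 lower. Genes of cholesterol synthesis had 2 of 25 higher (8%) and 0 lower. Among them EBP, a sterol isomerase, was at a log2 difference of 0.71 (edgeR adjusted p = 0.322, DESeq2 adjusted p = 0.0252, and 0.209 without DMSO replicate 2). NF-kB targets had 3 of 18 higher (16.7%) and 1 lower (5.56%), and between 0 (without DMSO replicate 2) and 7 (without DMSO replicate 3) higher with a library left out. Glycolysis and hypoxia genes had 0 of 30 higher and 3 lower (10%), and 1 lower without actD replicate 1, actD replicate 3, DMSO replicate 1 or DMSO replicate 2.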
